A study of Homo sapiens with 27 samples.

Results

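The proteasome is the protease complex that degrades ubiquitin-tagged proteins in the cytoplasm and nucleus, and its genes were followed here through 3 h of lipopolysaccharide (LPS) treatment with and without the glucocorticoid dexamethasone (Dex). The members are the 50 of 20453 counted genes whose symbol begins with PSMA, PSMB, PSMC, PSMD, PSME, PSMF or PSMG. This rule reads names and no measured value, but it was chosen with earlier results of these data known. Of these, 48 encode proteasome subunits, activators, an inhibitor or assembly chaperones. The other 2, PSMC3IP and PSME3IP1, are named for binding a proteasome protein and were counted apart.

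The cells were THP-1, a human monocytic leukaemia line, differentiated towards macrophages by 24 h in 10 ng/ml of the phorbol ester PMA. They then received 100 ng/ml LPS together with 1 µM Dex (LPS+Dex), 100 ng/ml LPS alone, or vehicle of ethanol and PBS, and were taken after 3 h. Each treatment was measured by RNA-seq in 4 libraries and by ribosome profiling in 5 libraries, the second counting the mRNA fragments that translating ribosomes protect (footprints). All groups share the PMA step, no group received Dex without LPS, and the single tumour-derived line is the only cell source. The labels do not say whether replicates were separate cultures, so the spread behind every p-value is that between libraries and may be technical.

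The core particle of the proteasome is a barrel of alpha rings and beta rings, with the active sites on the beta subunits PSMB5, PSMB6 and PSMB7. A regulatory particle, made of a base with ATPases and ubiquitin receptors and a lid with a deubiquitinase, recognises and unfolds substrates. In immune cells, and in others after interferon, PSMB8, PSMB9 and PSMB10 take the places of PSMB5, PSMB6 and PSMB7 in newly built particles. That form, the immunoproteasome, together with the PA28 activator made of PSME1 and PSME2, is known for cutting peptides that suit MHC class I presentation.

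Libraries held 19 to 30.7 M counted RNA reads and 11.5 to 26.1 M counted footprints, where M is 1e6. LPS acted in both assays, with TNF higher in LPS than in vehicle by 4.50 (RNA) and 5.97 (footprints) on the log2 scale, and so did Dex, with FKBP5, a glucocorticoid-induced gene, higher in LPS+Dex than in LPS by 4.23 and 4.52. The summed level of 8 macrophage markers was 2430–2570 CPM (counts per M counts of the library, after its TMM scaling factor) in LPS+Dex, 2400–2650 CPM in LPS and 3370–3980 CPM in vehicle RNA libraries, and 7 of the 8 were lower in LPS than in vehicle. In footprints the sums were 3190–9360 CPM in LPS+Dex, 2920–8240 CPM in LPS and 4020–8940 CPM in vehicle, with 3 of the 8 lower in LPS. For 11 markers of other cell types the RNA sums were 165–203, 132–181 and 261–430 CPM in LPS+Dex, LPS and vehicle, mostly from PECAM1, which monocytes also express; EPCAM was at 0 in every RNA library. The part of these shifts in the results was not tested, and fewer cells of a type and less RNA per cell cannot be told apart in such bulk libraries. A split among the RNA vehicle libraries is given below with the PA28 genes. Among footprint libraries a single set stood apart. The footprint libraries numbered 4 had scaling factors of 0.617 (LPS+Dex), 0.616 (LPS) and 0.933 (vehicle), below all the other footprint libraries of their treatment. They also held the highest macrophage-marker sums, 9360, 8240 and 8940 CPM in LPS+Dex, LPS and vehicle, where no other footprint library of those treatments passed 3320, 3310 and 4460 CPM. Calls of named genes that change without these libraries are given beside the result.

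Not every member was measurable. Tests covered 47 members in RNA and 46 in footprints. PSMA2, an alpha-ring subunit found in every proteasome, had 0 to 3 counts per RNA library and 0 to 5 per footprint library. PSMC1, a base ATPase, had 27 to 63 counts per RNA library and was tested there, but had 0 to 11 per footprint library. RefSeq places PSMA2 over the pseudogene LOC105375252 and PSMC1 over NRDE2. How reads from overlapping genes were assigned is not given in the sources used here. The cause of the low counts was not tested, and they are not read here as the genes' expression. PSMA8, the alpha subunit of testis proteasomes, had at most 1 count in a library, and PSMB11, the thymus beta subunit, had at most 5 counts in any RNA library and 0 in every footprint library.

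With LPS most proteasome genes rose together by a small amount in both assays. Of the 3 inducible catalytic subunits, 1 was called higher in RNA and 0 in footprints, by edgeR with all libraries. The RNA count is near the 28.6% of all genes given next, and PSMB9 RNA also passed under alternatives given below. In RNA 36 of 47 tested members rose in LPS relative to vehicle and 0 fell, where 28.6% of all 13327 genes tested were higher and 33.6% lower (edgeR quasi-likelihood test, Benjamini-Hochberg adjusted p under 0.05). Of the 47, 38 had an unadjusted p under 0.05 in either direction, and DESeq2 also called 0 lower. In footprints 34 of 46 members rose and 2 fell, where 25.4% of all 12197 genes tested were higher and 27.2% lower. The median log2 difference over the members was 0.34 in RNA and 0.32 in footprints, against -0.05 and -0.04 over all genes. Over the 5 inducible genes the median was 0.33 in RNA and -0.12 in footprints, and over the other proteasome genes it was 0.36 and 0.34.

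**Figure D1:**
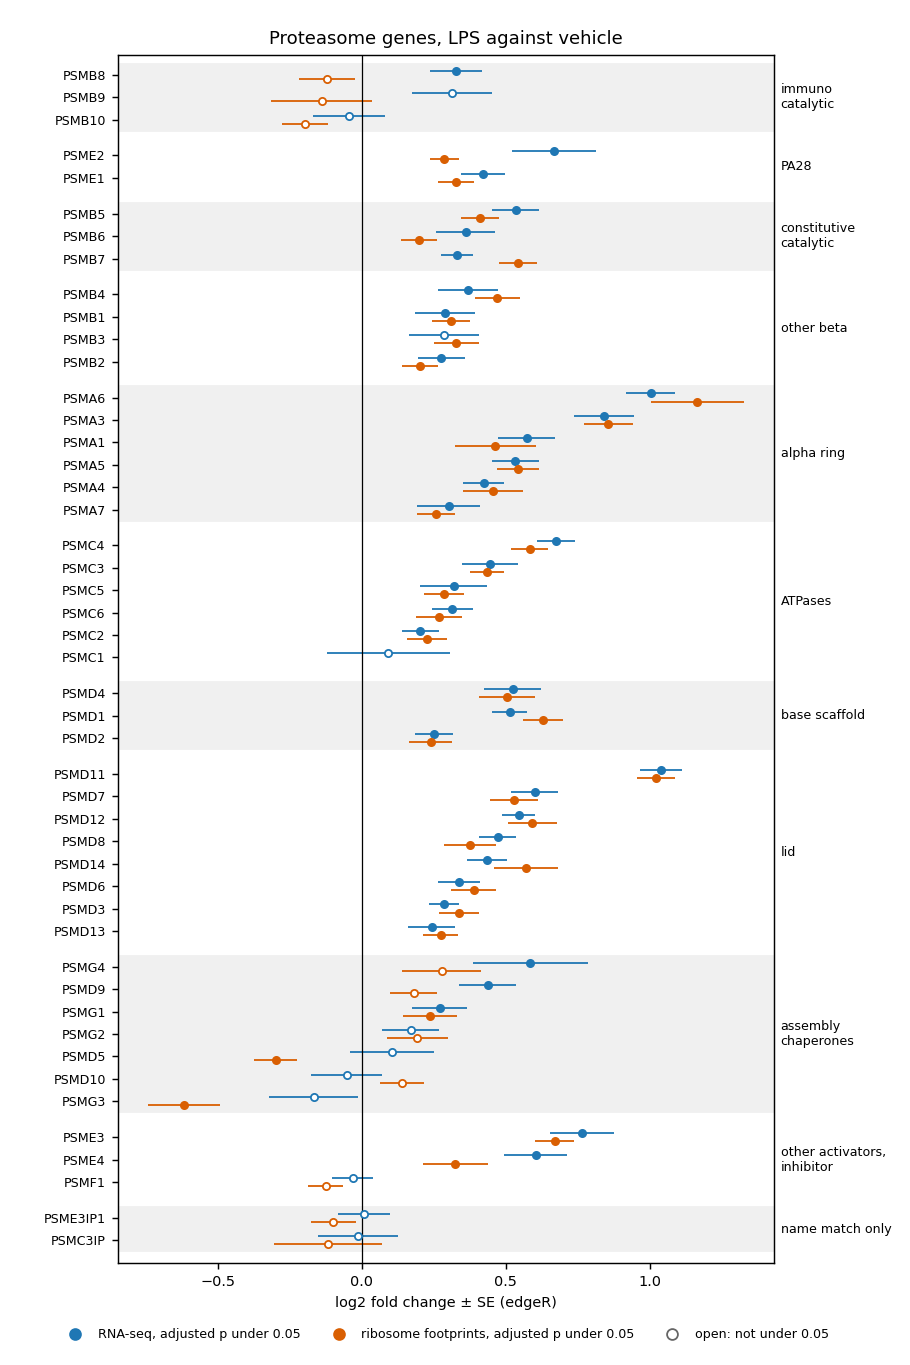
Log2 difference LPS minus vehicle for every tested member, by role, with its standard error; blue is RNA (4 libraries per treatment), orange is footprints (5 per treatment), and filled points have an adjusted p under 0.05. Most points lie right of 0 in both assays, up to 1.04 in RNA and 1.17 in footprints, while the footprint points of PSMB8, PSMB9 and PSMB10 lie left of 0 and are open.

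The inducible catalytic subunits are taken first. PSMB8 (ENSG00000204264, chromosome 6, 32840717–32844679 in GRCh38.p14), which replaces PSMB5, had 204, 205, 178 and 183 CPM in LPS RNA libraries, against 171, 160, 138 and 144 CPM in vehicle. The groups did not overlap, and PSMB8 rose by 0.33 ± 0.09 (log2, SE; edgeR adjusted p = 0.00594). In footprints it had 189, 183, 172, 128 and 171 CPM in LPS, against 196, 181, 196, 164 and 180 CPM in vehicle. Here the groups overlapped, and the difference of -0.12 ± 0.10 did not pass (edgeR adjusted p = 0.321). RefSeq places the transcript PSMB8-AS1 over PSMB8, and with the strand setting of the counting not given, their reads cannot be told apart.

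PSMB9 (ENSG00000240065, chromosome 6, 32854192–32859851), which replaces PSMB6, had 81.3, 89.7, 63.3 and 65.4 CPM in LPS RNA libraries, against 69.8, 64.8, 51.7 and 54.7 CPM in vehicle. The ranges overlapped, and the difference of 0.31 ± 0.14 did not pass (edgeR adjusted p = 0.0617), although it passed with relative log expression scaling (adjusted p = 0.0391). In footprints PSMB9 had 63.5, 58.8, 52.2, 30.2 and 52.5 CPM in LPS, against 62.4, 59.6, 62, 43.3 and 56.1 CPM in vehicle. The libraries numbered 4 were the lowest of both treatments, and the groups overlapped (-0.14 ± 0.17, edgeR adjusted p = 0.53).

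PSMB10 (ENSG00000205220, chromosome 16, 67934506–67936850), which replaces PSMB7, had 135, 164, 133 and 126 CPM in LPS RNA libraries, against 164, 167, 117 and 127 CPM in vehicle. The groups overlapped widely (-0.05 ± 0.13, edgeR adjusted p = 0.777). In footprints it had 155, 156, 141, 126 and 143 CPM in LPS, against 183, 163, 168, 140 and 170 CPM in vehicle. Every same-numbered LPS library was below its vehicle counterpart, although the groups overlapped. The footprint difference of -0.19 ± 0.08 missed the threshold (edgeR adjusted p = 0.0513), passed with the replicate number as a block (adjusted p = 0.00598), and passed without the libraries numbered 4 (-0.21, adjusted p = 0.00314).

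The PA28 activator genes lie near each other on chromosome 14, PSME1 (ENSG00000092010) at 24136194–24138962 and PSME2 (ENSG00000100911) at 24143365–24146610. PSME1 had 211, 220, 203 and 204 CPM in LPS RNA libraries, against 165, 177, 140 and 144 CPM in vehicle. Its footprints were 243, 237, 245, 213 and 224 CPM in LPS, against 192, 184, 192, 172 and 187 CPM in vehicle. Neither assay showed overlap, and PSME1 rose by 0.42 ± 0.08 in RNA and 0.33 ± 0.06 in footprints (edgeR adjusted p = 0.000289 and 0.000464). PSME2 had 148, 179, 129 and 136 CPM in LPS RNA libraries, against 106, 112, 70.1 and 84.8 CPM in vehicle. Its footprints were 63.7, 61.8, 63.1, 62.3 and 60 CPM in LPS, against 51.8, 48.2, 52.6, 52.6 and 49.5 CPM in vehicle. The groups were separate in both assays, and PSME2 rose by 0.67 ± 0.15 in RNA and 0.29 ± 0.05 in footprints (edgeR adjusted p = 0.00122 and 0.000211). In RNA, vehicle libraries 1 and 2 lay above 3 and 4 for PSMB8, PSMB9, PSMB10, PSME1 and PSME2 alike. This spread is part of the errors given. The other proteasome genes split the same way, with sums of 6146 and 5899 CPM against 5034 and 5136 CPM. Over all genes, chi-squared per degree of freedom between counts was 11.8 for libraries 1 and 2 and 13.9 for 3 and 4. Across these pairs it was 30.3 to 81.6. The cause was not tested.

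The start regions of PSME2 and PSMB10 are printed because they share a run of letters, and those of PSMB9 and PSMD3 because they hold patterns found in both inducible and constitutive genes. The table of RefSeq promoters (GRCh38.p14) held 55 promoters for 44 of the members, and each was searched over the 250 bases before the start, on both strands. The longest run common to PSME2 and PSMB10 on their own strands was GAAAGCGAAAGC, 12 bases long and beginning at -28 in PSME2 and -21 in PSMB10. Repeats of GAAA are the kind of sequence that interferon-regulatory factors bind. This run was in 14 of all 35116 promoters (0.0399%), and 3 of those belong to members, PSME2, PSMB10 and the assembly chaperone gene PSMG4. PSME2 and PSMB10 hold it because the run was defined from them. Only PSMG4 was found by the search, so these counts cannot show an enrichment among members. The interferon-gamma-activated pattern TTCNNNGAA was in 12.7% of member promoters, among them those of PSMB8 and PSMB5, against 6.57% of all promoters. The antioxidant-response pattern TGACNNNGC, of the class that NFE2L1 and NFE2L2 bind, was in 23.6%, among them those of PSMB9, PSME1 and PSME2, against 10.9% of all. The E-box CACGTG was in 9.09% against 6.34%, and the CCAAT box in 41.8% against 32%. No matches of different patterns overlapped in a member promoter. A match is a run of letters only, and the absence of one says nothing about the factor. Each sequence runs 5′ to 3′ on the gene's strand over the 150 bases before the start. Capitals mark the shared run in PSME2 (chr14:24146611-24146760, minus strand) and PSMB10 (chr16:67936851-67937000, minus strand), the antioxidant pattern read on the opposite strand in PSMB9 (chr6:32854042-32854191, plus strand), and first the interferon-gamma-activated and then the antioxidant pattern in PSMD3 (chr17:39980657-39980806, plus strand).
PSME2: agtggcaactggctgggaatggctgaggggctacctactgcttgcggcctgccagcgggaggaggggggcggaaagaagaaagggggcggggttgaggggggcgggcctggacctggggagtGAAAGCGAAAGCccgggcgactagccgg
PSMB10: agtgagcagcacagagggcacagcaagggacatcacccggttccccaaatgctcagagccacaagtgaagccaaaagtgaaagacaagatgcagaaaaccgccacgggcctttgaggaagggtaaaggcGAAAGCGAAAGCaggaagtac
PSMB9: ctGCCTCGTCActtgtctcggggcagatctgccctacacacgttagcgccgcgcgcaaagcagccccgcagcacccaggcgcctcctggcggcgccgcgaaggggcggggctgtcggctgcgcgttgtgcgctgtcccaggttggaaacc
PSMD3: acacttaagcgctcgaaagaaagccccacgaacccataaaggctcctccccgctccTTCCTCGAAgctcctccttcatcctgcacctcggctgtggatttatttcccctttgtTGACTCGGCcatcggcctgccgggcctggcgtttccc

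With the same run near the start, PSME2 RNA rose with LPS by the 0.67 given above and PSMB10 RNA gave -0.05. A difference between the genes was not tested. PSMD3, a lid subunit, rose by 0.29 ± 0.05 in RNA and 0.34 ± 0.07 in footprints (edgeR adjusted p = 0.000301 and 0.000756).

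The constitutive catalytic subunits rose in both assays. PSMB5 (ENSG00000100804, chromosome 14, 23025851–23035220) had 185, 199, 169 and 170 CPM in LPS RNA libraries, against 141, 132, 111 and 115 CPM in vehicle. In footprints it had 293, 320, 301, 273 and 302 CPM in LPS, against 211, 223, 225, 231 and 229 CPM in vehicle. No LPS library overlapped with vehicle in either assay, and PSMB5 rose by 0.54 ± 0.08 in RNA and 0.41 ± 0.07 in footprints (edgeR adjusted p = 6.87e-05 and 9.82e-05). PSMB6 (ENSG00000142507, chromosome 17, 4796164–4798495) had 95.1, 106, 88.8 and 89.9 CPM in LPS RNA libraries, against 87.4, 78.8, 63.2 and 66.5 CPM in vehicle. Its footprints were 109, 116, 110, 108 and 109 CPM in LPS, against 103, 90.3, 90.5, 104 and 94.3 CPM in vehicle. Both sets were separate but close, and PSMB6 rose by 0.36 ± 0.10 and 0.20 ± 0.06 (edgeR adjusted p = 0.00679 and 0.0158). PSMB7 (ENSG00000136930, chromosome 9, 124353465–124415442) had 179, 183, 179 and 166 CPM in LPS RNA libraries, against 146, 143, 137 and 135 CPM in vehicle. Its footprints were 218, 226, 235, 190 and 206 CPM in LPS, against 153, 147, 153, 143 and 141 CPM in vehicle. The groups were well apart in both assays, and PSMB7 rose by 0.33 ± 0.06 and 0.54 ± 0.07 (edgeR adjusted p = 0.000145 and 7.37e-06).

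**Figure D2:**
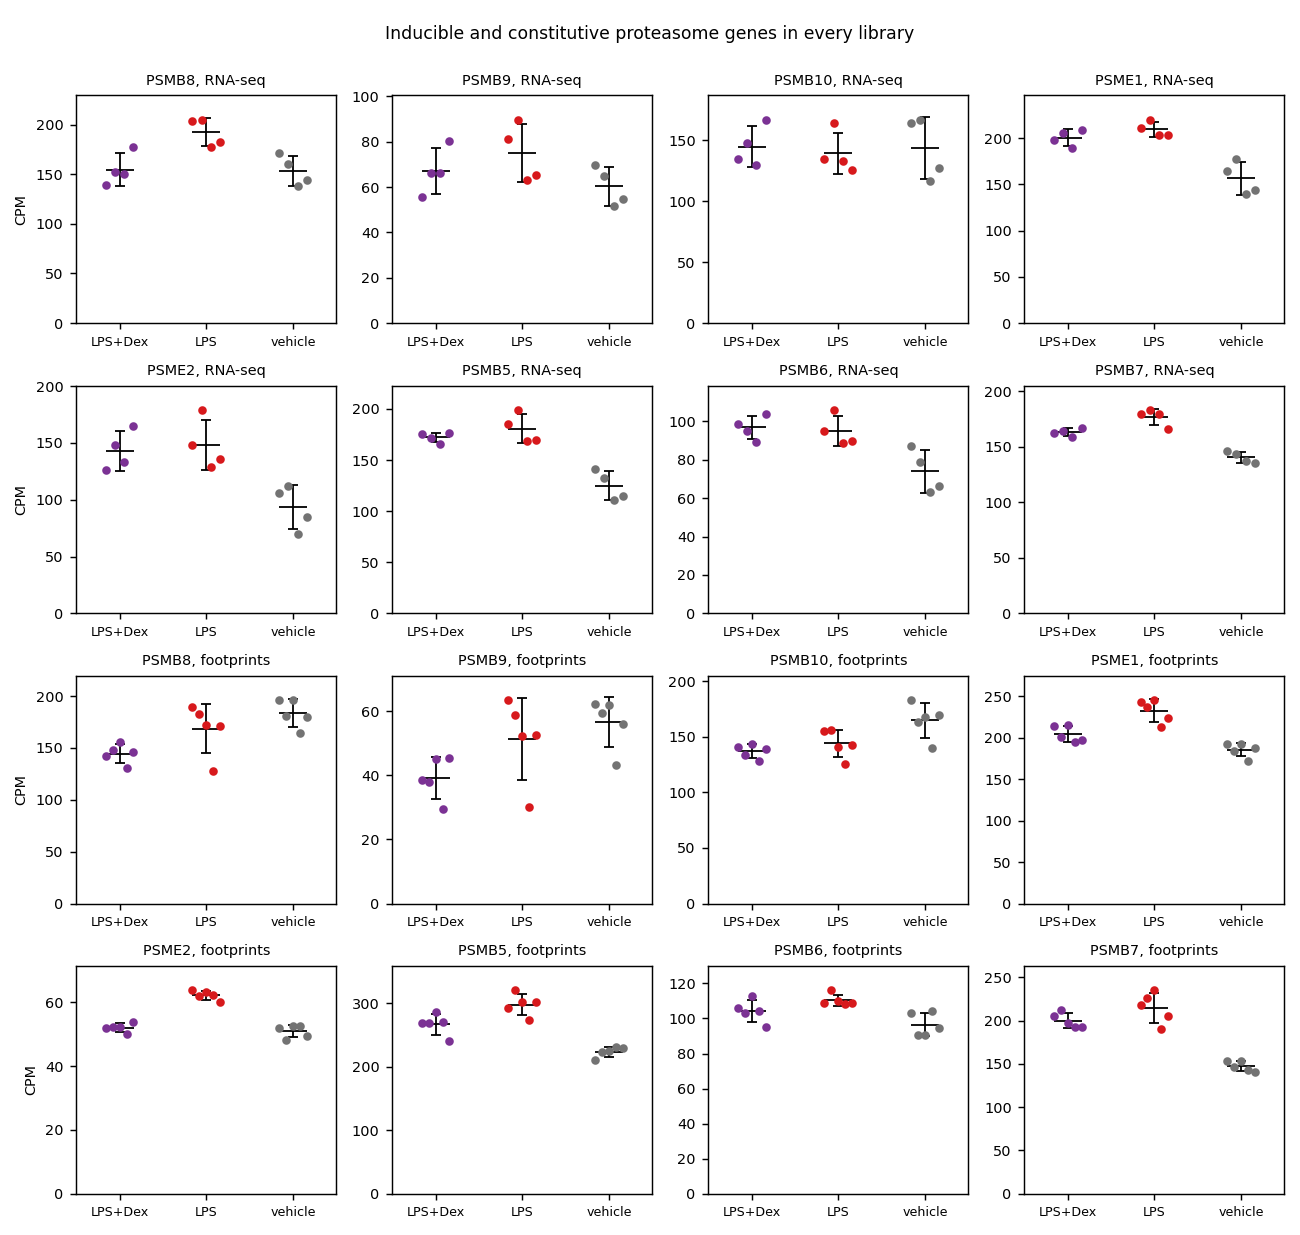
Level in CPM of the 5 inducible genes and the 3 constitutive catalytic genes in each library, RNA in the top 2 rows and footprints in the lower 2, by treatment; each point is 1 library and the bars are the mean and SD. LPS lies above vehicle with no overlap for PSMB5, PSMB6, PSMB7, PSME1 and PSME2 in both assays, and the 3 treatments overlap for PSMB10 in RNA.

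The balance between each inducible catalytic subunit and the one it replaces was compared within libraries, as a ratio of counts. Such a ratio has no meaning as a level, because the transcripts differ in length, but its change between treatments can be read. In footprints PSMB8/PSMB5 was 0.646, 0.573, 0.573, 0.469 and 0.566 in LPS, against 0.927, 0.809, 0.871, 0.711 and 0.784 in vehicle. The PSMB10/PSMB7 ratio was 0.709, 0.689, 0.602, 0.661 and 0.694 in LPS, against 1.19, 1.11, 1.1, 0.983 and 1.21 in vehicle. Neither ratio overlapped between treatments. PSMB8/PSMB5 fell to 0.688 times its vehicle value (log2 difference -0.54 ± 0.10) and PSMB10/PSMB7 to 0.601 times (-0.73 ± 0.07), each with p = 0.00794 in a two-sided exact permutation test, the smallest that 5 against 5 libraries can give, and 0.0476 after adjustment over the 12 ratio comparisons made. PSMB9/PSMB6 was 0.584, 0.506, 0.474, 0.279 and 0.48 in LPS, against 0.608, 0.66, 0.685, 0.416 and 0.596 in vehicle. Each LPS library was below the vehicle library of its number but the groups overlapped, and the log2 difference of -0.37 did not pass (adjusted p = 0.204, exact permutation test). In the paired version all 3 ratios reached the smallest exact permutation p that 5 pairs allow, 0.0625 (adjusted p = 0.214), so the 2 calls were lost, with differences of -0.54 for PSMB8/PSMB5 and -0.73 for PSMB10/PSMB7. Without the libraries numbered 4 no ratio overlapped between treatments, and all 3 reached the smallest p that 4 against 4 allow, 0.0286 (exact permutation test, adjusted p = 0.0686), with differences of -0.52 for PSMB8/PSMB5, -0.32 for PSMB9/PSMB6 and -0.77 for PSMB10/PSMB7.

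In RNA the same ratios moved less and none passed after adjustment. PSMB8/PSMB5 was 1.1, 1.03, 1.05 and 1.08 in LPS, against 1.21, 1.22, 1.24 and 1.25 in vehicle. The groups did not overlap, but the smallest p that 4 against 4 libraries allow is 0.0286, which became 0.0857 after adjustment (two-sided exact permutation test). The log2 difference was -0.21 for PSMB8/PSMB5, -0.06 for PSMB9/PSMB6 and -0.37 for PSMB10/PSMB7. As a share of all proteasome-gene CPM, the 5 inducible genes made up 7.9–9.42% in LPS+Dex, 8.79–9.67% in LPS and 9.31–10.3% in vehicle RNA, and 6.22–7.28% in LPS+Dex, 5.97–7.71% in LPS and 8.09–9.98% in vehicle footprints. The footprint CPM behind these shares summed to 659 ± 60.6 in LPS and 641 ± 43.3 in vehicle for the inducible genes, and to 8591 ± 347 and 6256 ± 163 for the other proteasome genes (SD, n = 5 each).

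**Figure D3:**
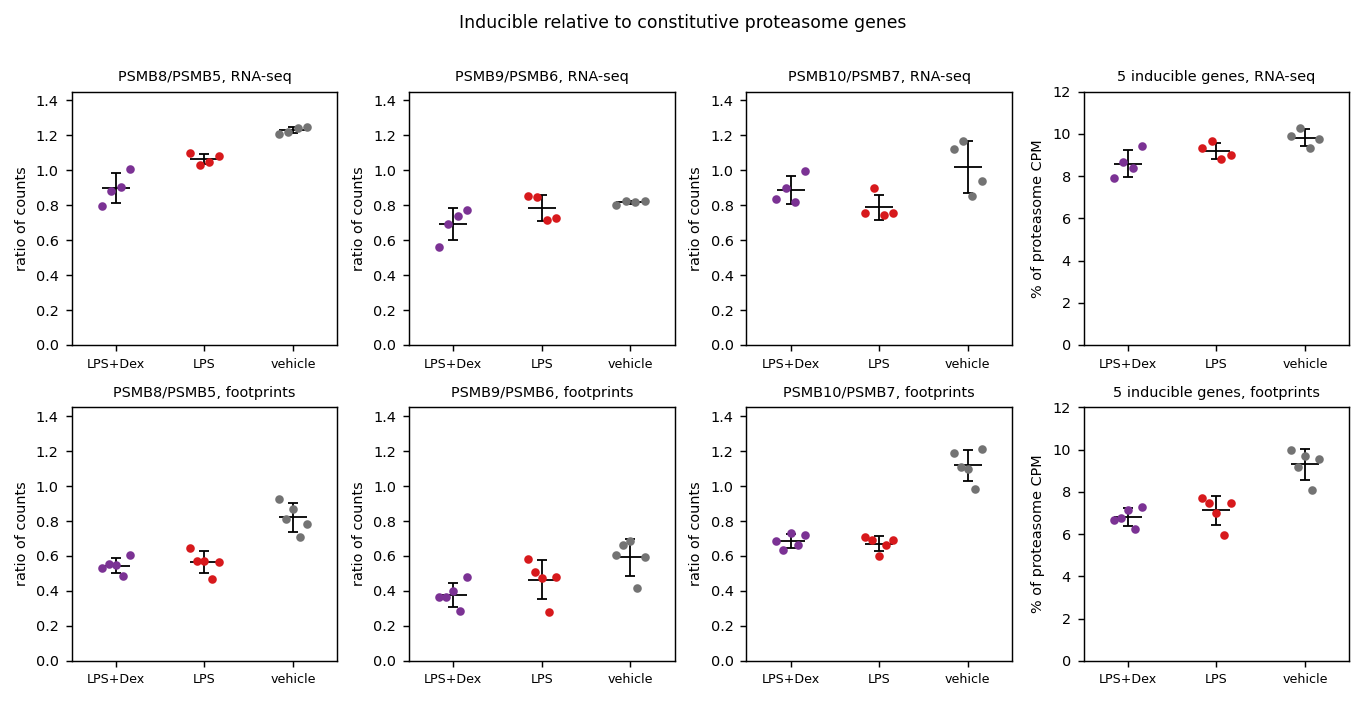
Ratio of each inducible catalytic gene to the one it replaces, and the percentage of proteasome-gene CPM from the 5 inducible genes, in each library (RNA above, footprints below); points are libraries, bars the mean and SD. In footprints PSMB8/PSMB5 and PSMB10/PSMB7 are lower in every LPS and LPS+Dex library than in any vehicle library.

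Nearly all genes of the rings and of the regulatory particle rose, where 28.6% of all genes were higher in RNA and 25.4% in footprints. All 6 tested alpha-ring genes rose in both assays. PSMA6 (ENSG00000100902, chromosome 14, 35278558–35317493) rose the most of them, with 209, 226, 204 and 204 CPM in LPS RNA libraries, against 113, 120, 95.7 and 92.1 CPM in vehicle. Its footprints were 283, 295, 330, 478 and 256 CPM in LPS, against 131, 158, 148, 170 and 126 CPM in vehicle. LPS libraries lay far above vehicle, with the library numbered 4 the highest of each treatment, and the differences were 1.00 ± 0.09 and 1.17 ± 0.16 (edgeR adjusted p = 1.99e-07 and 2.36e-05). RefSeq also places the read-through transcript PRORP-PSMA6 over PSMA6. Of the other beta-ring genes, 3 of 4 rose in RNA and 4 of 4 in footprints, by 0.20 to 0.47 among those called. PSMB4, a structural beta subunit, was the largest in both, with 0.37 ± 0.10 in RNA and 0.47 ± 0.08 in footprints (edgeR adjusted p = 0.00663 and 0.000152).

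In the base, 5 of 6 tested ATPases rose in RNA and 5 of 5 in footprints, where 28.6% and 25.4% of all genes were higher. PSMC4 led the ATPases with 0.68 ± 0.07 and 0.58 ± 0.06 (edgeR adjusted p = 8.34e-07 and 2.42e-06). PSMC1 was the one that did not pass in RNA (0.09 ± 0.21, adjusted p = 0.728), at the low counts given above. The scaffold and receptor genes rose 3 of 3 in both assays, with PSMD4, a ubiquitin receptor, at 0.52 ± 0.10 in RNA and PSMD1, the large scaffold subunit, at 0.63 ± 0.07 in footprints. All 8 lid genes rose in both assays. PSMD11 (ENSG00000108671, chromosome 17, 32444510–32483319), a lid subunit that also touches the core particle, had 194, 175, 197 and 196 CPM in LPS RNA libraries, against 95.5, 85.8, 95.7 and 93.8 CPM in vehicle. Its footprints were 284, 273, 302, 283 and 263 CPM in LPS, against 131, 139, 132, 154 and 135 CPM in vehicle. Its groups were far apart, with differences of 1.04 ± 0.07 and 1.02 ± 0.06 (edgeR adjusted p = 2.75e-08 and 7.64e-09).

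Outside PA28, the activators PSME3 and PSME4 rose in both assays and the inhibitor PSMF1 passed in neither. PSME3, the nuclear relative of PSME1 and PSME2, rose by 0.77 ± 0.11 in RNA and 0.67 ± 0.07 in footprints (edgeR adjusted p = 3.81e-05 and 1.21e-06). PSME4, a large single-chain activator of the nucleus, rose by 0.60 ± 0.11 and 0.32 ± 0.11 (adjusted p = 0.000274 and 0.0245). The footprint call was lost in 4 of 15 runs without 1 library, those without vehicle replicate 1 or 4 or LPS replicate 3 or 5 (adjusted p = 0.0529 to 0.0696). PSMF1, which inhibits the core particle in the test tube, gave -0.03 ± 0.07 and -0.13 ± 0.06 and passed in neither assay (adjusted p = 0.716 and 0.104).

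Of the assembly chaperones 3 of 7 rose in RNA, where 28.6% of all genes were higher. In footprints 1 of 7 rose and 2 fell, where 25.4% of all genes were higher and 27.2% lower. PSMG1 and PSMG2 work as a pair on the alpha ring, and PSMG3 and PSMG4 as another. PSMG1 rose by 0.27 ± 0.10 in RNA and 0.24 ± 0.09 in footprints (edgeR adjusted p = 0.0234 and 0.0429). The RNA call was lost in 4 of 12 runs without 1 library (adjusted p = 0.0512 to 0.072), without vehicle replicate 3 or 4 or LPS replicate 1 or 2. The footprint call was lost in 11 of 15 (0.0503 to 0.117), all but those without vehicle replicate 3 or 5 or a library numbered 4 of LPS or LPS+Dex, and also with no filter on low counts (0.0868). PSMG2 did not pass in either (0.17 ± 0.10 and 0.19 ± 0.11, adjusted p = 0.154 and 0.143). PSMG4 rose in RNA by 0.59 ± 0.20 (adjusted p = 0.0197), a call lost without vehicle replicate 3 (0.0527), vehicle replicate 4 (0.0626) or LPS replicate 2 (0.057), while its footprints gave 0.28 ± 0.14 (adjusted p = 0.106). PSMG3 had 6.36, 6.17, 5.72, 4.08 and 5.88 CPM in LPS footprint libraries, against 9.16, 8.46, 8.97, 7.31 and 9.41 CPM in vehicle. The groups were separate, and PSMG3 footprints fell by 0.62 ± 0.13 on the log2 scale (edgeR adjusted p = 0.000723), whereas its RNA gave -0.17 ± 0.16 (adjusted p = 0.37). PSMD5, a chaperone of base assembly, was the other member whose footprints fell (-0.30 ± 0.07, adjusted p = 0.00337), with RNA at 0.11 ± 0.15 (adjusted p = 0.549). PSMD9, another base chaperone, rose in RNA (0.44 ± 0.10, adjusted p = 0.00148), with 0.18 ± 0.08 in footprints (adjusted p = 0.0784), which passed with the replicate block (adjusted p = 0.0335) and without the libraries numbered 4 (0.21, adjusted p = 0.0157). PSMC3IP and PSME3IP1 passed in neither assay.

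Whether footprints moved apart from RNA was tested as the interaction of assay and treatment, called here translational efficiency (TE). For LPS against vehicle 0 of 46 members passed in either direction, where 1.02% of all 11944 genes tested were higher and 0.762% lower (edgeR quasi-likelihood test). Of the 46, 4 had an unadjusted p under 0.05, PSMB7 higher and PSMB8, PSMD5 and PSME2 lower, and DESeq2 called 0. The TE difference was -0.42 ± 0.14 for PSMB8 (edgeR adjusted p = 0.175), -0.42 ± 0.25 for PSMB9 (adjusted p = 0.566), -0.12 for PSMB10 (adjusted p = 0.882), -0.06 for PSME1 (adjusted p = 0.913) and -0.35 ± 0.16 for PSME2 (adjusted p = 0.366). All 5 were below 0 and none passed, against a median of 0.02 over the other proteasome genes and 0.01 over all genes. Being below 0 was not particular to the inducible genes. PSME3, PSME4 and PSMF1 also lay below it, at -0.25 to -0.06. The constitutive catalytic genes ran from -0.13 to 0.24, a range that holds the values of PSMB10 and PSME1. With the replicate number as a block within each assay, PSMB8 fell in TE by 0.43 on the log2 scale (adjusted p = 0.0199), and without the footprint libraries numbered 4 it gave -0.38 (adjusted p = 0.0402).

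Adding Dex to LPS left most members within the spread between libraries. In RNA 2 of 47 rose in LPS+Dex relative to LPS and 3 fell, where 15.5% of all genes were higher and 15.4% lower. In footprints 1 of 46 rose and 4 fell, where 9.08% were higher and 7.99% lower (edgeR quasi-likelihood test). With the replicate number as a block, 2 footprint members rose and 11 fell, where 16.1% of all genes were higher and 14.8% lower in that fit. Without the libraries numbered 4, 2 rose and 10 fell, where 16.2% were higher and 15.3% lower. The median log2 difference over the members was -0.02 in RNA and -0.09 in footprints, beside 0.01 and 0.02 over all genes. In TE 0 of 46 passed, with 0.0419% of all genes higher and 0.00837% lower. There 2 members had an unadjusted p under 0.05, and DESeq2 called 0.

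**Figure D4:**
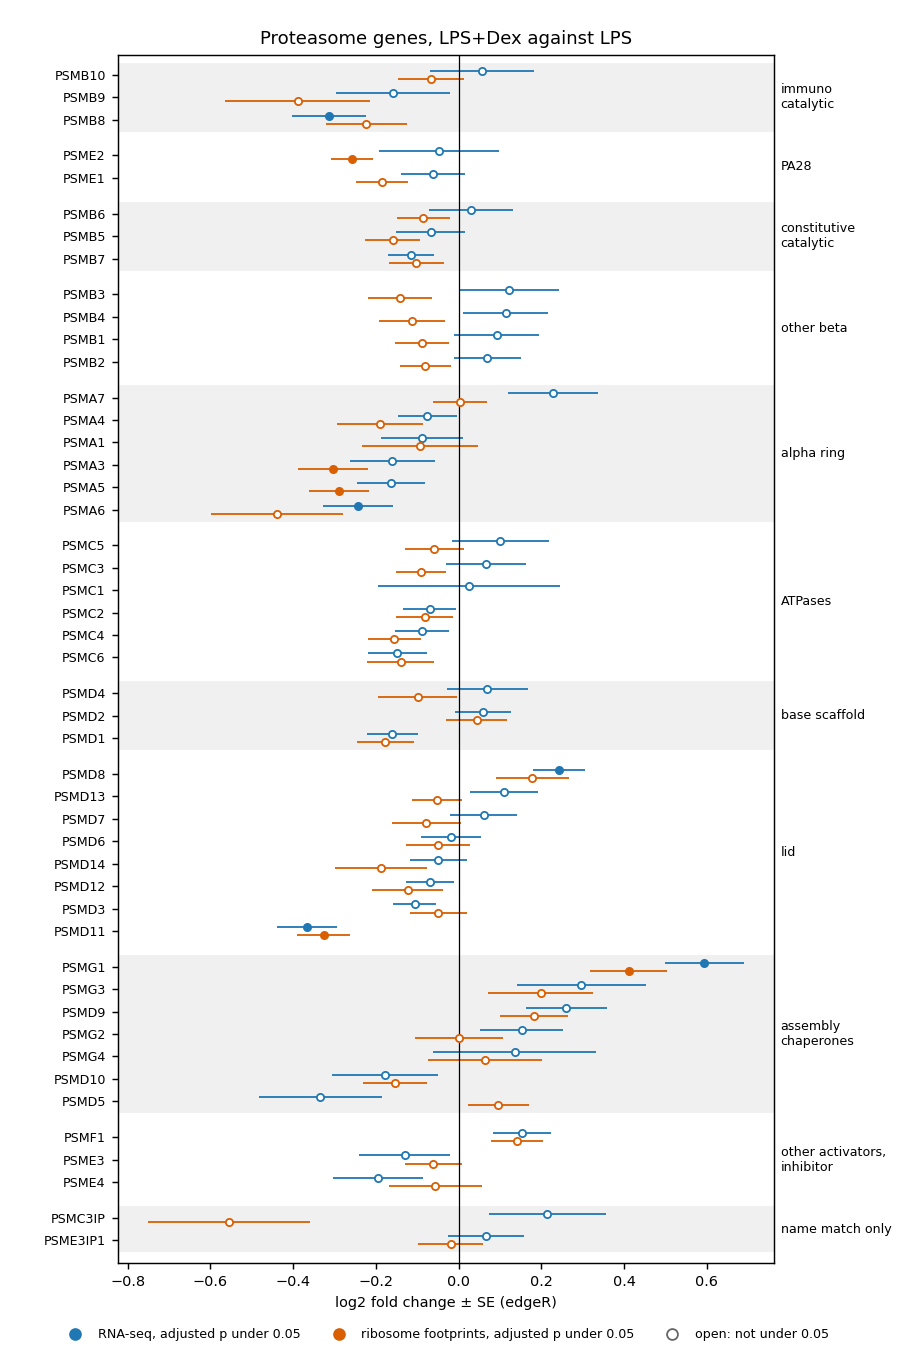
Log2 difference LPS+Dex minus LPS for every tested member, by role, with its standard error, in RNA (blue) and footprints (orange); filled points have an adjusted p under 0.05. Points gather near 0, with PSMG1 farthest right at 0.59 in RNA and 0.41 in footprints and PSMD11 left of 0 in both.

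PSMB8 fell in RNA. It had 139, 152, 150 and 178 CPM in LPS+Dex RNA libraries, against 204, 205, 178 and 183 CPM in LPS. The groups met at 178 CPM, the difference was -0.31 ± 0.09 (edgeR adjusted p = 0.0171), and the call was lost without LPS replicate 1 (adjusted p = 0.0543) or LPS+Dex replicate 1 (0.0565). In footprints PSMB8 had 142, 148, 156, 131 and 146 CPM in LPS+Dex, against 189, 183, 172, 128 and 171 CPM in LPS. The LPS library numbered 4 was below all LPS+Dex libraries and the other LPS libraries were above them. The footprint difference was -0.22 ± 0.10 (adjusted p = 0.147), it passed as a fall with the replicate block (-0.21, adjusted p = 0.0178), and without all libraries numbered 4 it was -0.27 (adjusted p = 0.000925). Leaving out LPS replicate 4 alone gave -0.31 (adjusted p = 0.00864).

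PSMB9 RNA was 55.6, 66.2, 66.3 and 80.2 CPM in LPS+Dex, against the LPS values of 63.3 to 89.7 CPM, and the overlap was wide (-0.16 ± 0.14, edgeR adjusted p = 0.408). Its footprints were 38.7, 37.8, 45.2, 29.5 and 45.4 CPM in LPS+Dex, against 30.2 to 63.5 CPM in LPS. Again the LPS library numbered 4 was the one within the LPS+Dex range, and the difference of -0.39 ± 0.18 (adjusted p = 0.159) became -0.37 with the replicate block (adjusted p = 0.00435) and -0.44 without the libraries numbered 4 (adjusted p = 0.000143). Without LPS replicate 4 alone it was -0.53 (adjusted p = 0.0107). PSMB10 had 135, 148, 130 and 167 CPM in LPS+Dex RNA libraries and 141, 134, 144, 128 and 139 CPM in LPS+Dex footprint libraries, inside or next to the LPS range in both assays, with differences of 0.06 ± 0.13 and -0.07 ± 0.08 (adjusted p = 0.76 and 0.672).

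PSME1 RNA was 198, 206, 189 and 209 CPM in LPS+Dex, beside 203 to 220 CPM in LPS, with overlap, and its difference of -0.06 ± 0.08 did not pass (edgeR adjusted p = 0.567). Its footprints were 214, 201, 215, 195 and 197 CPM in LPS+Dex, beside 213 to 245 CPM in LPS. The ranges touched, and they gave -0.18 ± 0.06 (adjusted p = 0.0576), which passed with the replicate block (adjusted p = 0.00881) and without the libraries numbered 4 (-0.19, adjusted p = 0.00844). PSME2 RNA was 126, 148, 133 and 165 CPM in LPS+Dex, inside the LPS range of 129 to 179 CPM but for its lowest value (-0.05 ± 0.15, adjusted p = 0.834). PSME2 footprints were 51.8, 52.1, 52.3, 50 and 53.8 CPM in LPS+Dex, against 63.7, 61.8, 63.1, 62.3 and 60 CPM in LPS. These groups were wide apart with little spread, and PSME2 footprints fell by 0.26 ± 0.05 on the log2 scale (adjusted p = 0.002).

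Among constitutive catalytic genes none passed in edgeR with all libraries. PSMB5 had 175, 172, 166 and 176 CPM in LPS+Dex RNA libraries and 268, 268, 286, 270 and 240 CPM in footprints, with differences from LPS of -0.07 ± 0.08 and -0.16 ± 0.07 (edgeR adjusted p = 0.564 and 0.121). The PSMB5 footprints passed as lower without the libraries numbered 4 (-0.19, adjusted p = 0.0154) and with DESeq2 (-0.18, adjusted p = 0.0141). PSMB6 had 98.9, 95.2, 89.5 and 104 CPM in RNA and 106, 103, 113, 104 and 95.2 CPM in footprints, with 0.03 ± 0.10 and -0.09 ± 0.06 (adjusted p = 0.854 and 0.451). PSMB7 had 162, 164, 159 and 167 CPM in RNA and 206, 212, 197, 193 and 193 CPM in footprints, with -0.11 ± 0.06 and -0.10 ± 0.07 (adjusted p = 0.135 and 0.365), and its RNA passed as lower with DESeq2 (-0.14, adjusted p = 0.0327). The RNA ratio PSMB8/PSMB5 was 0.797, 0.882, 0.905 and 1.01 in LPS+Dex, below every LPS library, at a log2 difference of -0.25 that did not pass (exact permutation p = 0.0286, the smallest possible, adjusted p = 0.0857). The RNA ratio PSMB9/PSMB6 differed by -0.19. PSMB10/PSMB7 was 0.835, 0.901, 0.819 and 0.998 in LPS+Dex, against 0.755, 0.897, 0.744 and 0.756 in LPS, a difference of 0.17 in the other direction with overlapping groups (exact permutation p = 0.0857), and neither passed. The footprint ratios differed by -0.05, -0.27 and 0.04 for PSMB8/PSMB5, PSMB9/PSMB6 and PSMB10/PSMB7, and none passed.

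The member that rose in both assays was PSMG1 (ENSG00000183527, chromosome 21, 39174769–39183514). It had 74.1, 77.4, 69.2 and 73.7 CPM in LPS+Dex RNA libraries, against 51.5, 50.9, 45.6 and 47.1 CPM in LPS. Its footprints were 46.8, 45, 46.6, 36.1 and 46.1 CPM in LPS+Dex, against 33.2, 32.6, 38.2, 28.5 and 33.4 CPM in LPS. RNA groups were separate and footprint groups overlapped through the LPS+Dex library numbered 4. PSMG1 rose by 0.59 ± 0.10 in RNA and 0.41 ± 0.09 in footprints (edgeR adjusted p = 0.000261 and 0.00585). Its partner PSMG2 gave 0.15 ± 0.10 and 0.00 ± 0.11 (adjusted p = 0.269 and 0.999), and PSMG3 and PSMG4 passed in neither assay.

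PSMD8, a lid subunit, had 257, 241, 245 and 255 CPM in LPS+Dex RNA libraries, against 206, 210, 215 and 212 CPM in LPS. The groups were separate and PSMD8 rose by 0.24 ± 0.06 (edgeR adjusted p = 0.0091), while its footprints gave 0.18 ± 0.09 (adjusted p = 0.211) and passed with the replicate block (0.18, adjusted p = 0.0119) and without the libraries numbered 4 (0.19, adjusted p = 0.00772). PSMD11 fell back part of the way, with 159, 146, 155 and 131 CPM in LPS+Dex RNA libraries, against 194, 175, 197 and 196 CPM in LPS. Its footprints were 232, 223, 212, 229 and 225 CPM in LPS+Dex, against 284, 273, 302, 283 and 263 CPM in LPS. Neither assay showed overlap, and the falls were -0.37 ± 0.07 and -0.33 ± 0.06 (adjusted p = 0.00141 and 0.00216).

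In the alpha ring PSMA6 fell in RNA, with 190, 176, 166 and 180 CPM in LPS+Dex against 204 to 226 CPM in LPS. The groups were separate (-0.24 ± 0.09, edgeR adjusted p = 0.0429), but 7 of the runs without 1 library lost the call (adjusted p = 0.0629 to 0.112). PSMA6 footprints gave -0.44 ± 0.16 (adjusted p = 0.0758) and passed with the replicate block (-0.42, adjusted p = 0.000756) and without the libraries numbered 4 (-0.36, adjusted p = 0.00093). Footprints of PSMA3 fell by 0.30 ± 0.08 and those of PSMA5 by 0.29 ± 0.07 on the log2 scale (edgeR adjusted p = 0.0208 and 0.0118). The PSMA3 call was lost without LPS replicate 3 (0.0604) or LPS+Dex replicate 3 (0.0605). Runs without 1 library were not read for PSMA5 by itself. With the block, PSMC4 (-0.16, adjusted p = 0.0275), PSMD1 (-0.18, adjusted p = 0.0469) and PSMB3 (-0.14, adjusted p = 0.0451) also fell in footprints, and PSMC4 did so without the libraries numbered 4 (-0.15, adjusted p = 0.0403).

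The comparison of LPS+Dex with vehicle shares its libraries with the other 2, so its values are set beside theirs and are no further support for them. In RNA 35 of 47 members rose and 0 fell, where 29.2% of all genes were higher and 31% lower (edgeR quasi-likelihood test); 36 members had an unadjusted p under 0.05 in either direction, and DESeq2 also called 0 lower. In footprints 27 of 46 rose and 6 fell, where 24.4% of all genes were higher and 22% lower. The 6 were PSMB8, PSMB9, PSMB10, PSMD5, PSMG3 and PSMC3IP, of which PSMD5 no longer passed without the libraries numbered 4 (-0.16, adjusted p = 0.0822). All 3 inducible catalytic genes were thus among those that fell, by 0.34 ± 0.10, 0.53 ± 0.18 and 0.26 ± 0.08 on the log2 scale for PSMB8, PSMB9 and PSMB10 (edgeR adjusted p = 0.00944, 0.0222 and 0.0137). The PSMB9 call was lost without any of 5 single libraries (adjusted p = 0.0533 to 0.0614) and the PSMB10 call without vehicle replicate 1 (0.0611). In RNA these genes gave 0.02, 0.15 and 0.01 and none passed (adjusted p = 0.89, 0.347 and 0.937).

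The PA28 pair differed from vehicle in RNA under LPS+Dex, PSME1 by 0.36 (edgeR adjusted p = 0.00115) and PSME2 by 0.62 ± 0.15 (adjusted p = 0.00227). In footprints PSME2 gave 0.03 ± 0.05 (adjusted p = 0.669), with LPS+Dex and vehicle libraries overlapping, and PSME1 gave 0.14 (adjusted p = 0.0776), which passed with the replicate block (adjusted p = 0.0201) and without the libraries numbered 4 (0.13, adjusted p = 0.0424). PSME4 footprints passed as higher by 0.27 with the block (adjusted p = 0.00373) and 0.29 without the libraries numbered 4 (adjusted p = 0.00705). PSMG4 footprints passed as higher with the block (0.34, adjusted p = 0.0298). PSMG1 stood 0.87 above vehicle in RNA and 0.65 in footprints (adjusted p = 3.24e-06 and 4.43e-05).

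In TE 0 of 46 members passed for LPS+Dex against vehicle, where 1.32% of all genes were higher and 0.611% lower (edgeR quasi-likelihood test). There 8 members had an unadjusted p under 0.05, and DESeq2 called 2 lower, PSME2 and PSMC3IP. PSME2 gave -0.56 ± 0.16 (adjusted p = 0.0616), PSMB9 -0.65 ± 0.25 (adjusted p = 0.186), PSMB8 -0.33 ± 0.14 (adjusted p = 0.266) and PSMC3IP -0.85 ± 0.24 (adjusted p = 0.0616). With the replicate block, 4 members passed as lower and 1 as higher, where 4.97% of all genes were lower and 7.19% higher in that fit. The lower ones were PSME2 (-0.58, adjusted p = 0.00398), PSMB9 (-0.67, adjusted p = 0.0116), PSMG3 (-0.55, adjusted p = 0.0426) and PSMC3IP (-0.86, adjusted p = 0.00968), and the higher one was PSMB7 (0.25, adjusted p = 0.0376). Without the footprint libraries numbered 4, where 4.08% of all genes were lower, the same 4 were lower, PSME2 with adjusted p = 0.0374 and PSMB9 with adjusted p = 0.0147.

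Genes that work with the proteasome but carry other names were read from a list of 20 tested genes. With LPS 9 rose and 2 fell in RNA, where 28.6% of all genes were higher and 33.6% lower. In footprints 11 rose and 3 fell, where 25.4% were higher and 27.2% lower. Without the libraries numbered 4, 11 rose and 6 fell in footprints, where 31.5% were higher and 36% lower. With all libraries the largest rises were those of UBQLN4, a shuttle for ubiquitinated proteins (0.78 ± 0.11 in RNA), and TXNL1, a thioredoxin-like protein bound to the lid (0.86 ± 0.10 in footprints). The largest falls were those of ZFAND5 (-0.41 ± 0.07 in RNA), which activates the regulatory particle, and NGLY1 (-0.42 ± 0.08 in footprints), the glycanase that processes NFE2L1. With Dex added to LPS 3 rose and 4 fell in RNA, and 2 rose and 2 fell in footprints, shares close to those over all genes given above for all libraries. Without the libraries numbered 4, 2 rose and 5 fell in footprints, where 16.2% of all genes were higher and 15.3% lower. NFE2L1, a transcription factor of proteasome subunit genes, rose in LPS+Dex relative to LPS by 0.60 ± 0.07 in RNA and 0.64 ± 0.18 in footprints. The member medians were -0.02 and -0.09 as given above. With LPS alone NFE2L1 footprints were called lower than in vehicle without the libraries numbered 4. A link between NFE2L1 and the members was not tested. In LPS+Dex relative to LPS, UBQLN2 fell in RNA (-0.55 ± 0.16) and TXNL1 in footprints (-0.46 ± 0.10).

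On the list of 15 genes of MHC class I peptide supply, which use the peptides that the immunoproteasome cuts, 11 rose and 2 fell with LPS in RNA, and 6 rose and 1 fell in footprints. Over all genes 28.6% were higher and 33.6% lower in RNA, and 25.4% and 27.2% in footprints. The footprint libraries numbered 4 stood apart here too, with summed levels of 14200, 14500 and 7830 CPM in LPS+Dex, LPS and vehicle, where the other libraries had 5760–6020, 7280–7810 and 4360–4490 CPM. Without them 10 rose and 1 fell in footprints, where 31.5% of all genes were higher and 36% lower. The largest rise was that of IRF1, an interferon-regulatory factor (2.61 ± 0.07 in RNA and 2.42 ± 0.16 in footprints), and the largest fall that of NLRC5, a transactivator of MHC class I genes (-0.92 ± 0.09 and -1.09 ± 0.14). TAP1, the peptide transporter gene that neighbours PSMB9, rose by 2.17 in RNA and 1.33 in footprints, beside the 0.31 and -0.14 of PSMB9. With Dex added to LPS 9 fell in RNA, where 15.4% of all genes were lower. In footprints 3 fell, led by IRF1 (-0.94 ± 0.16), where 7.99% of all genes were lower. No gene of the list rose in either assay. Without the libraries numbered 4, 7 fell in footprints, where 15.3% of all genes were lower. Of the 5 inducible proteasome genes, PSMB8 was called lower in RNA and PSME2 in footprints with all libraries. Without the libraries numbered 4, 4 of them were called lower in footprints, PSMB8, PSMB9, PSME1 and PSME2. With the replicate block 4 were also called lower in footprints, where 14.8% of all genes were lower.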

How the data were processed

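Raw counts per gene for 12 RNA-seq and 15 footprint libraries were deposited by the authors as 1 table per assay. Per the submitters' processing notes, reads were handled with STAR 2.7.10a, featureCounts 2.0.1 and DESeq2 1.26.0, with Bowtie2 2.4.5 for footprints, on GRCh38. Per the labels' protocols the RNA kit was stranded; no source used here gives the annotation, counted feature, strand setting or handling of multi-mapping reads, which decide how pseudogene copies and overlapping genes share reads. CPM, fold changes and tests were computed here in R 4.3.3 from these counts. Low genes were removed with filterByExpr at a minimum count of 10 and a minimum total of 15. TMM factors and the quasi-likelihood F test came from edgeR 4.0.16, with 3 treatments in 1 fit per assay. TE was the assay by treatment interaction over all 27 libraries. P-values were Benjamini-Hochberg adjusted over all genes tested, with a threshold of 0.05. The standard error is the size of the log2 difference divided by the square root of F. Ratios were taken within libraries after adding 0.5 to each count and compared by two-sided exact permutation tests. The fit was tested on simulated data.

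Members and lists were chosen with earlier results of these data known. Genes named were the inducible and constitutive catalytic genes, PA28, PSME3, PSME4, PSMF1, PSMG1 to PSMG4, untested members, the largest called rise and fall in each list, and members called in TE. Genes outside it (PSMA5, PSMB3, PSMC3IP, PSMD3, PSMD5 and PSMD9) and TAP1 were named, and the patterns searched in promoters chosen, after values were seen. One gene that the rule names is not reported here. Replicate numbers come from the labels. In footprints all 15 same-numbered pairs of libraries deviated together (correlation over 0.1, lowest 0.182, median 0.271), so they count as paired and blocked values are given; without the libraries numbered 4, 3 of 12 did. In RNA 7 of 12 did, so these were not treated as paired. Alternatives were DESeq2 1.42.0, relative log expression scaling, no low-count filter, only the 2 groups compared, the replicate block, and leaving out libraries. Replicates of 1 group differed by more than sampling noise, and counting intervals were not needed because every comparison rests on replicates.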

Additional observations from a re-analysis of the deposited data

Results flagged for a closer look

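In 8 of 165 groups of 4 or 5 libraries the highest or lowest library lay apart from the others by Dixon's gap test, and chance alone gives about 1 in 20. In RNA, LPS replicate 2 had 175 CPM of PSMD11 where the other LPS libraries had 194 to 197 CPM. The RNA ratio PSMB10/PSMB7 was 0.897 in LPS replicate 2, against 0.744 to 0.756 in the other LPS libraries, and the RNA ratio PSMB9/PSMB6 was 0.799 in vehicle replicate 1, against 0.819 to 0.823. In footprints, LPS+Dex replicate 4 had 36.1 CPM of PSMG1 (others 45 to 46.8 CPM) and LPS replicate 4 had 4.08 CPM of PSMG3 (others 5.72 to 6.36 CPM). These 2 come from the libraries numbered 4, whose scaling factors stood apart. LPS replicate 2 had 116 CPM of PSMB6 footprints (others 108 to 110 CPM), LPS+Dex replicate 2 had 41 CPM of PSMF1 footprints (others 45.9 to 46.8 CPM), and LPS+Dex replicate 5 had 281 CPM of PSMC4 footprints (others 303 to 309 CPM). Only a library's distance from its own group was read here, and no cause was tested.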

How the results depend on the processing

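No result changed direction under the alternatives run, where a result that passed in neither setting was counted as kept whatever its sign. Counts of members called moved by over 1.5 times as follows. For LPS+Dex against LPS in RNA, 6 fell with DESeq2 and 8 in a fit of the 2 groups alone, and 4 rose with the replicate block and 4 with the 2 groups alone. In footprints, 10 fell with DESeq2, 11 with the replicate block and 10 without the libraries numbered 4, and 2 rose under each of the last 2. In TE, 1 member fell for LPS against vehicle with the block and 1 without the libraries numbered 4. For LPS+Dex against vehicle 2 fell with DESeq2, 4 with the block (1 rose) and 4 without the libraries numbered 4. The footprint ratio differences for LPS against vehicle were -0.539 (PSMB8/PSMB5) and -0.735 (PSMB10/PSMB7) with the replicate block and -0.523 and -0.775 without the libraries numbered 4, none passing because fewer arrangements exist. Leaving out 1 library in turn gave these ratios as -0.589 to -0.473 and -0.78 to -0.696. It gave 30 to 39 rises for LPS against vehicle in RNA, and 32 to 35 rises and 2 to 3 falls in footprints. For LPS+Dex against LPS it gave 2 to 3 rises and 1 to 4 falls in RNA, and 1 rise and 3 to 7 falls in footprints, with 7 without LPS replicate 4. For LPS+Dex against vehicle it gave 35 to 38 rises and 0 to 1 falls in RNA, 25 to 28 rises and 4 to 6 falls in footprints, and 0 to 2 falls in TE. Over the 210 results of 27 named genes, 18 gained a call with the block, 14 without the libraries numbered 4, 12 with DESeq2 and 3 with relative log expression scaling, and 2 lost one without the filter. Of 3762 values without 1 library, 39 lost a call and 28 gained one. PSMG1 footprints (LPS against vehicle) had adjusted p = 0.0503 to 0.117 where the call was lost. In RNA, where numbers are not paired, the block is only a check. Levels per coding length were not run, as no coding lengths were used here. Counts too low to test leave out PSMA2, PSMA8 and PSMB11, and PSMC1 in footprints; the cause was not tested.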
